A study of Mus musculus with 12 samples.

Results

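Type I interferon response genes were followed through T cells taken from MCA205 tumours. The set is a list of 39 genes that cells switch on after type I interferon binds its receptor, given by name. Of the 39, 37 were found among the 32285 genes of the expression matrices. Mx1 and Mx2 matched no symbol of the matrices and were not analysed. The comparison sets mice given an antibody that neutralises acyl-CoA binding protein (ACBP, the product of the Dbi gene) against mice given the isotype antibody IgG2a.

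Both groups were C57Bl/6 mice carrying MCA205, a transplanted fibrosarcoma line, under the skin after injection of 300000 cells. All of them had 10 mg/kg oxaliplatin at day 8 and 200 µg anti-PD-1 another 8 days later, so the isotype mice are not an untreated baseline. The anti-ACBP group (3 mice) and the isotype group (3 mice) received their antibody at 2.5 mg/kg every other day, starting before the chemotherapy and ending before the immunotherapy. Tumours were taken 2 days after anti-PD-1, and CD4 and CD8 T cells were sorted, combined in equal parts and loaded at 10000 cells on a droplet platform that counts unique molecules (UMIs) from the 5′ end. The sort was for T cells, so cells of other types that could make type I interferon in the tumour were not part of the design.

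The deposited cell table lists 30749 cells in clusters numbered 0 to 8. They were grouped as 16945 CD8 T cells, 8902 conventional CD4 T cells and 4706 regulatory T cells (Foxp3-bearing suppressor cells), and 196 cells had no class. The conventional CD4 class takes in all of cluster 1, in which some cells had more Cd8a and Cd8b1 than Cd4 UMIs. Such cells made up 15.8%, 23.8% and 17.2% of cluster 1 with anti-ACBP and 15.1%, 5.75% and 20.6% with isotype. That class is therefore not purely CD4. Median UMIs per cell ran from 6602.5 to 7682 in the anti-ACBP libraries and from 4516 to 7147.5 in the isotype libraries. Of 30207 distinct cell barcodes, 536 occurred in more than 1 library. The 6 T cell marker genes summed to between 2721 and 5038 CPM (UMI counts scaled to 1000000 per library and cell set) in every class and library, while the 11 macrophage and monocyte markers summed to between 6.04 and 28.8 CPM.

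Type I interferons bind the receptor IFNAR, whose kinases JAK1 and TYK2 activate transcription factors that include STAT2. With IRF9, STAT2 enters a complex that binds the interferon-stimulated response element in the promoters of target genes. The products sense foreign nucleic acid, block translation or replication of viruses, tag proteins with ISG15 and, through USP18, shut the receptor off. In T cells the same response restrains division and shapes survival after stimulation.

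Promoter sequences are shown first, because this element is what defines the response. RefSeq promoters (GRCm38.p6, from 250 bases before to 50 after the start) were matched for 29 of the 37 genes. Zbp1, Dhx58, Oas2, Usp18, Rtp4, Parp9, Parp14 and Ifi27 were not matched. The core searched was GAAANNGAAA on either strand, and overlapping copies were counted. It occurred in 15 of the 29 genes (51.7%), against 1079 of all 27025 genes of the table (3.99%). It was also present in 24 of 51 other interferon-stimulated genes (47.1%) and in 11 of 20 genes of the type II interferon list (55.0%). In a list of receptor, signalling, interferon and sensing genes it occurred in 2 of 18 (11.1%). A match describes letters only and is not evidence of binding. Stretches around the cores follow, written 5′ to 3′ on the strand of the gene with the cores in capitals. The genes are those whose changes are described further on (Isg15, Ifit1, Bst2, Trim30a, Phf11b) and 3 whose level varied widely between clusters or that hold a doubled core (Rsad2, Ifit3, Oas1a).
Isg15, chr4:156200855-156200916, minus strand: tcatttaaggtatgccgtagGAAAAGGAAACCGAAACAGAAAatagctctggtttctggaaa
Bst2, chr8:71537567-71537622, minus strand: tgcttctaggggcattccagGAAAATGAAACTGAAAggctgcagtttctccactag
Oas1a, chr5:120907526-120907565, minus strand: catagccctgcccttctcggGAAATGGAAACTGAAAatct
Ifit1, chr19:34640765-34640833, plus strand: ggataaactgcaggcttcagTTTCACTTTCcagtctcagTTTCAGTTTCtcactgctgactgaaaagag
Ifit3, chr19:34583353-34583436, plus strand: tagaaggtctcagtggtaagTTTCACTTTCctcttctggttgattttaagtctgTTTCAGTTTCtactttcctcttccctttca
Rsad2, chr12:26456543-26456592, minus strand: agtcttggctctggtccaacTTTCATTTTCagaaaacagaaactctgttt
Trim30a, chr7:104465200-104465249, minus strand: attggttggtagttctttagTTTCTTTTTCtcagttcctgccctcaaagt
Phf11b, chr14:59341351-59341400, minus strand: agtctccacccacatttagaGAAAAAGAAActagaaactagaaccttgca
Isg15 holds 3 overlapping cores and Bst2 and Oas1a hold 2 each, sharing a central GAAA. Ifit3b carries the same 84 letters as Ifit3 at chr19:34607749-34607832. Ifit3 and Ifit3b, and likewise Oas1a, Trim30a, Phf11b and Ifi209 with their neighbouring paralogues, could share reads, and the labels do not say how such reads were counted. The windows of Samd9l, Xaf1, Isg20, Rnf213, Ifi209 and Irf9 did not hold these letters.

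Across the clusters the response was widest in cluster 0, a CD8 cluster, and in cluster 2, the regulatory T cells. Summed over the 37 genes, cluster 2 averaged 3145 ± 220 CPM and cluster 0 averaged 2995 ± 321 CPM (SD over 6 libraries), and these intervals overlap. Every library gave cells to all clusters, and differences within a library are not given. Next came cluster 8 (mixed lineage) at 2604 ± 643, cluster 6 (CD8) at 2544 ± 495 and cluster 1 (mainly CD4) at 2380 ± 369 CPM, with overlapping intervals. Cluster 3 (CD8) had 2117 ± 170, cluster 5 (mixed) 2056 ± 298 and cluster 4 (mixed, mostly CD8) 1940 ± 309 CPM. Cluster 7, a CD4 cluster, was lowest at 1595 ± 116 CPM. In cluster 8 only 46, 19 and 14 cells came from the anti-ACBP libraries. These are descriptions, since the clusters were made from the same cells and genes.

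Of the 33 genes that averaged at least 5 CPM over the clusters, 19 were highest in cluster 0 and 10 in cluster 2, and 26 were lowest in cluster 7. The 8 with the largest ratio of highest to lowest cluster were Ifit3b, Slfn5, Ifit3, Cmpk2, Rsad2, Rtp4, Ifit1 and Isg20. Ifit3b and Ifit3, which join the IFIT complexes that bind foreign RNA, reached 14.2 ± 5.21 and 78.5 ± 19.6 CPM in cluster 0, against 0.887 ± 1.15 and 10.3 ± 4.66 CPM in cluster 7 (ratios 16.0 and 7.59). Ifit1, their partner, had 67.3 ± 22.1 CPM in cluster 0 and 16.4 ± 4.85 CPM in cluster 4. Cmpk2, a mitochondrial nucleotide kinase, and its neighbour Rsad2, which encodes viperin, had ratios of 6.79 and 5.57, with both extremes in clusters 0 and 7. Rtp4, which restrains viral replication, and Isg20, an exonuclease, were instead highest in cluster 2 (109 ± 8.77 and 314 ± 44.3 CPM). Slfn5, a Schlafen family gene, followed neither pattern. It was highest in cluster 1 at 38.5 ± 15.1 CPM and lowest in cluster 4 at 3.48 ± 1.49 CPM. Ifi27 was nearly level, from 169 ± 16.5 CPM in cluster 6 to 217 ± 15.7 CPM in cluster 7. Oas2, Oasl1, Oasl2 and Ifi44 averaged under 5 CPM.

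**Figure D1:**
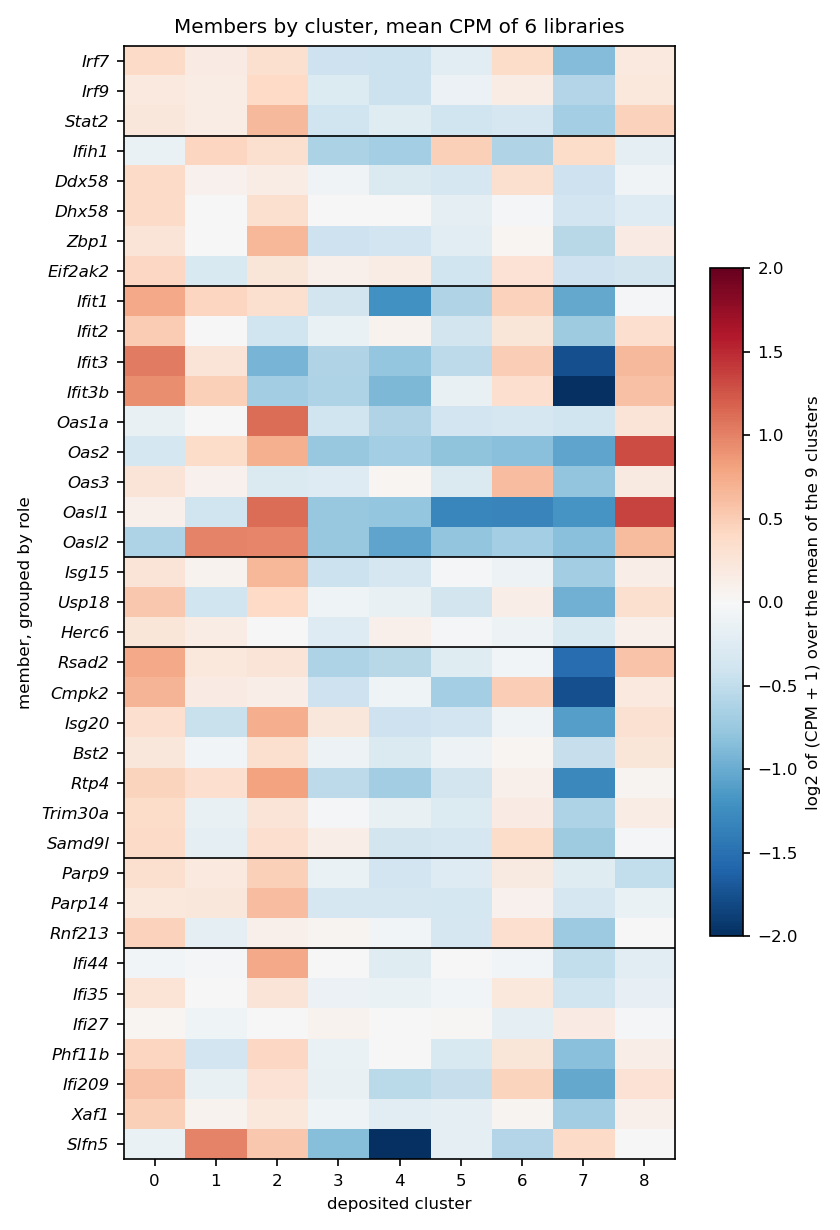
Heat map of the interferon response genes (rows, ordered by role) in clusters 0 to 8 (columns). Colour is the log2 of the cluster's CPM + 1 over the mean of the 9 clusters, averaged over 6 libraries; most rows are high in clusters 0 and 2 and low in cluster 7, and Ifi27 is nearly flat.

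The most inducible of these genes were detected in a minority of cells. Each cell was thinned to 2000 UMIs, which left out 1030 shallower cells, and 11 strongly inducible genes were scored: Isg15, Ifit1, Ifit2, Ifit3, Ifit3b, Rsad2, Usp18, Oasl1, Cmpk2, Ifi44 and Rtp4. At least 3 of them were detected in 2215 of 29719 cells (7.45%, 95% Wilson interval 7.16% to 7.76%, counting error only). Of all cells, 2169 had exactly 2 and 944 had exactly 3, so the threshold cuts a continuous range. Unthinned, the share was 18.3%. The tenth of cells with the most UMIs of these genes held between 65.5% and 68.1% of them in each library. By cluster the share was 9.63% in cluster 0 and 1.98% in cluster 7.

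Genes outside the 11 were found more often in those cells. Irf7, which amplifies interferon production, had a UMI in 54.7 ± 2.87% of cells with at least 3 of the other induced genes, against 10.6 ± 0.787% of cells with none (SD, n = 6 libraries). Zbp1, a sensor of Z-form nucleic acid, had 63.4 ± 2.33% against 16.6 ± 1.10%, and Samd9l 24.2 ± 1.84% against 7.77 ± 1.43%. Irf9 differed least among the regulators, with 22.4 ± 2.70% against 10.1 ± 0.921%. Each of these was higher in 6 of 6 libraries. Ifi27 went the other way in all 6 libraries, with 22.5 ± 3.67% against 29.7 ± 2.05%. Among cells with at least 3 induced genes, 2.53% had a macrophage-marker UMI and 78.0% were in G1 phase, against 2.48% and 70.2% of cells with none. Barcodes outside the cell table carried the 37 genes at 4856, 5007 and 5717 CPM in anti-ACBP libraries and at 4807, 6177 and 6898 CPM in isotype libraries, above the level in cells. What these barcodes hold, cells or free RNA, was not examined, and the part of free RNA in the shares above was not tested.

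**Figure D2:**
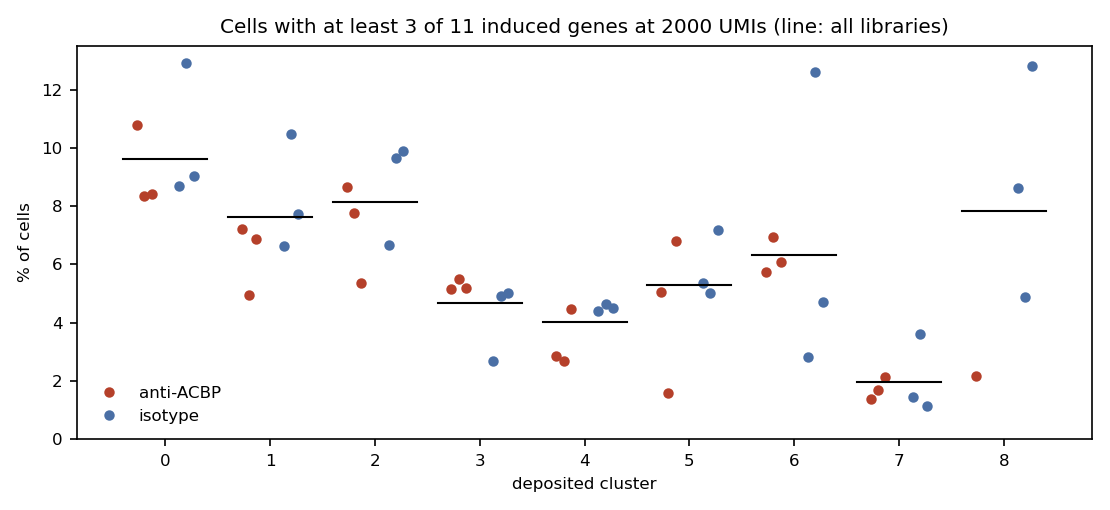
Percent of cells with at least 3 of 11 induced genes after thinning to 2000 UMIs, by cluster, one point per library, anti-ACBP left of isotype in each cluster. The line is the share over all libraries; libraries with under 20 cells of a cluster are not drawn. Cluster 0 is highest at 9.63% and cluster 7 lowest at 1.98%.

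Between the groups, the share of such cells overlapped in every class. It averaged 7.47 ± 0.362% in anti-ACBP and 8.19 ± 1.53% in isotype CD8 T cells (SD, n = 3 each). Conventional CD4 T cells had 5.54 ± 1.21% and 7.07 ± 1.76%, and regulatory T cells 7.11 ± 1.69% and 8.68 ± 1.74%, with anti-ACBP given before isotype in each pair. Within CD8 T cells in G2M phase the groups did not overlap, at 5.42%, 5.19% and 4.98% with anti-ACBP and 8.97%, 6.99% and 7.72% with isotype. In S phase conventional CD4 T cells they did not overlap either, at 2.10 ± 0.826% with anti-ACBP and 5.69 ± 1.91% with isotype, from 9 of 399 and 40 of 674 cells. Cluster 3 went the opposite way without overlap, at 5.29 ± 0.196% with anti-ACBP and 4.21 ± 1.31% with isotype. The sets without overlap were picked from all classes, all clusters and each phase of each class, and in every other set the groups overlapped. These are descriptions without a test.

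In CD8 T cells, 1 of the 36 tested genes changed with anti-ACBP, Samd9l, which fell. Samd9l encodes an antiviral protein that also restrains cell growth. It had 42.2, 45.1 and 44.7 CPM in anti-ACBP CD8 T cells, against 65.4, 63.3 and 66.9 CPM in isotype CD8 T cells. The groups were far apart relative to the spread within them. The log2 fold change was -0.60 ± 0.07 (SE; edgeR adjusted p = 0.0127, adjusted over all tested genes). Over all 11732 genes tested, 0.929% were called. Ifi44 had too few counts to be tested in any class. The median log2 fold change of the 36 genes was -0.16, against -0.0026 over all genes, and 27 of 36 were negative.

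Some of these genes separated the CD8 groups without being called. All anti-ACBP libraries lay below all isotype libraries for 12 of the 36 genes, where 8.67% of all genes did so, and above them for 2, where 15.7% of all genes did so. The 2 were Rtp4 and Irf9. Irf9, the DNA-binding subunit of the interferon complex, had 64.4, 64.1 and 65.4 CPM in anti-ACBP and 57.6, 51.9 and 54.7 CPM in isotype CD8 T cells (log2 fold change 0.21, edgeR adjusted p = 0.184). Xaf1, a pro-apoptotic partner of XIAP, had 75.5, 71.4 and 74.7 CPM with anti-ACBP and 88.0, 97.0 and 94.2 CPM with isotype. Its log2 fold change of -0.36 missed the threshold narrowly and was not called. Isg20 had 183, 160 and 177 CPM with anti-ACBP and 217, 298 and 236 CPM with isotype (-0.55, adjusted p = 0.0587). Next by p came Trim30a (-0.30), Rnf213 (a giant ubiquitin ligase, -0.41), Oas1a (which makes the activator of RNase L, -0.63), Phf11b (-0.35) and Herc6 (the ISG15 ligase of mice, -0.33), with adjusted p between 0.0915 and 0.118.

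Of the 11 strongly inducible genes, Usp18 was lower and Rtp4 higher without overlap in CD8 T cells, Ifi44 was not tested, and the groups overlapped for the other 8. Usp18 had 30.1, 24.2 and 29.3 CPM with anti-ACBP and 32.5, 45.3 and 36.2 CPM with isotype. Isg15 itself had 251, 187 and 199 CPM with anti-ACBP and 174, 257 and 220 CPM with isotype, and Ifit3 had 51.4, 54.5 and 57.0 CPM with anti-ACBP and 37.9, 69.4 and 42.2 CPM with isotype. Both overlap, and isotype library 2 was the highest library for each. Of the 8 genes with the most UMIs (Bst2, Isg15, Isg20, Ifi27, Zbp1, Phf11b, Trim30a and Irf7), Ifi27 averaged 196 ± 15.4 CPM in anti-ACBP and 200 ± 3.15 CPM in isotype cells, and Irf7 104 ± 6.51 and 105 ± 13.9 CPM (SD, n = 3). Bst2 had 280, 230 and 215 CPM with anti-ACBP and 276, 292 and 270 CPM with isotype. Zbp1 had 155, 122 and 143 CPM with anti-ACBP and 146, 153 and 147 CPM with isotype. The groups overlapped for both genes. The 16 genes at an unadjusted p under 0.05 make up 44.4% of the 36, where 17.9% of all genes reached it. Leaving out any 1 anti-ACBP library, or isotype library 3, ended the call of Samd9l (adjusted p from 0.0505 to 0.104) with log2 fold changes from -0.63 to -0.58. DESeq2 called 8 of the genes where edgeR called 1. The share of all genes called by DESeq2 is not given here, so the 8 have no background. The 8 conventional dendritic cell markers, Flt3 and Clec9a at 0, summed to 28.4 to 37.9 CPM in anti-ACBP and 15.4 to 23.8 CPM in isotype CD8 T cells, and their part in these results was not tested.

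In conventional CD4 T cells none of the 36 tested genes was called by edgeR, where 0.329% of all genes were. At an unadjusted p under 0.05 there were 7 (19.4%), where 15.2% of all genes reached it, and DESeq2 called 1. Of the 36, 28 were negative, with a median of -0.19. Herc6 came nearest, with 37.6, 30.4 and 34.3 CPM with anti-ACBP and 43.5, 56.1 and 56.3 CPM with isotype (-0.57 ± 0.13, edgeR adjusted p = 0.0886). Xaf1 (-0.44), Phf11b (-0.51), Samd9l (-0.35), Oas3 (-0.42), Parp14 (an ADP-ribosyltransferase, -0.24) and Rnf213 (-0.27) were also among the 8 smallest p. Irf9 was the eighth and was higher, at 69.7, 64.1 and 63.2 CPM with anti-ACBP and 55.6, 58.3 and 53.0 CPM with isotype (0.25, edgeR adjusted p = 0.226). Without isotype library 1 edgeR called 4 genes, and the share of all genes called in that setting is not given here.

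In regulatory T cells the called gene was Irf9, and it rose. It had 88.5, 95.1 and 93.3 CPM in anti-ACBP and 70.6, 63.0 and 66.5 CPM in isotype regulatory T cells. The groups did not overlap, and the log2 fold change was 0.44 ± 0.09 (SE; edgeR adjusted p = 0.0291). It was 1 of 36 tested genes, where 3.34% of all genes were called, so the share of genes called was near the background. The median over the 36 was -0.22, 30 were negative, and 10 (27.8%) reached an unadjusted p under 0.05, where 21.1% of all genes did. Irf9's partner Stat2 had 48.9, 47.4 and 36.7 CPM with anti-ACBP and 49.0, 48.4 and 48.0 CPM with isotype, which overlap. Samd9l (48.4, 58.1 and 53.0 against 59.7, 71.2 and 66.5 CPM, anti-ACBP before isotype) and Bst2, the tetherin that holds virions at the membrane (313, 290 and 223 against 357, 349 and 333 CPM), were lower without overlap and were not called (adjusted p = 0.104 and 0.148). Ifit2, Trim30a, Oas3, Dhx58 (an RNA sensor) and Isg20 were also among the 8 smallest p, at log2 fold changes from -0.62 to -0.28. All anti-ACBP libraries lay below all isotype libraries for 6 of the 36 genes, where 11.9% of all genes did so. They lay above for 3 (Irf9, Rtp4 and Ifi35), where 14.8% of all genes did so. Leaving out any 1 anti-ACBP library, or isotype library 3, ended the call of Irf9 (adjusted p from 0.0628 to 0.122, log2 fold change from 0.43 to 0.46). Cd8a and Cd8b1 summed to 67.7 to 115 CPM in anti-ACBP and 25.8 to 52.0 CPM in isotype regulatory T cells, both defining markers above 0. An alternative limited to cells with more Cd4 than Cd8a and Cd8b1 UMIs kept the call of Irf9. The part of these markers was not otherwise tested.

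**Figure D3:**
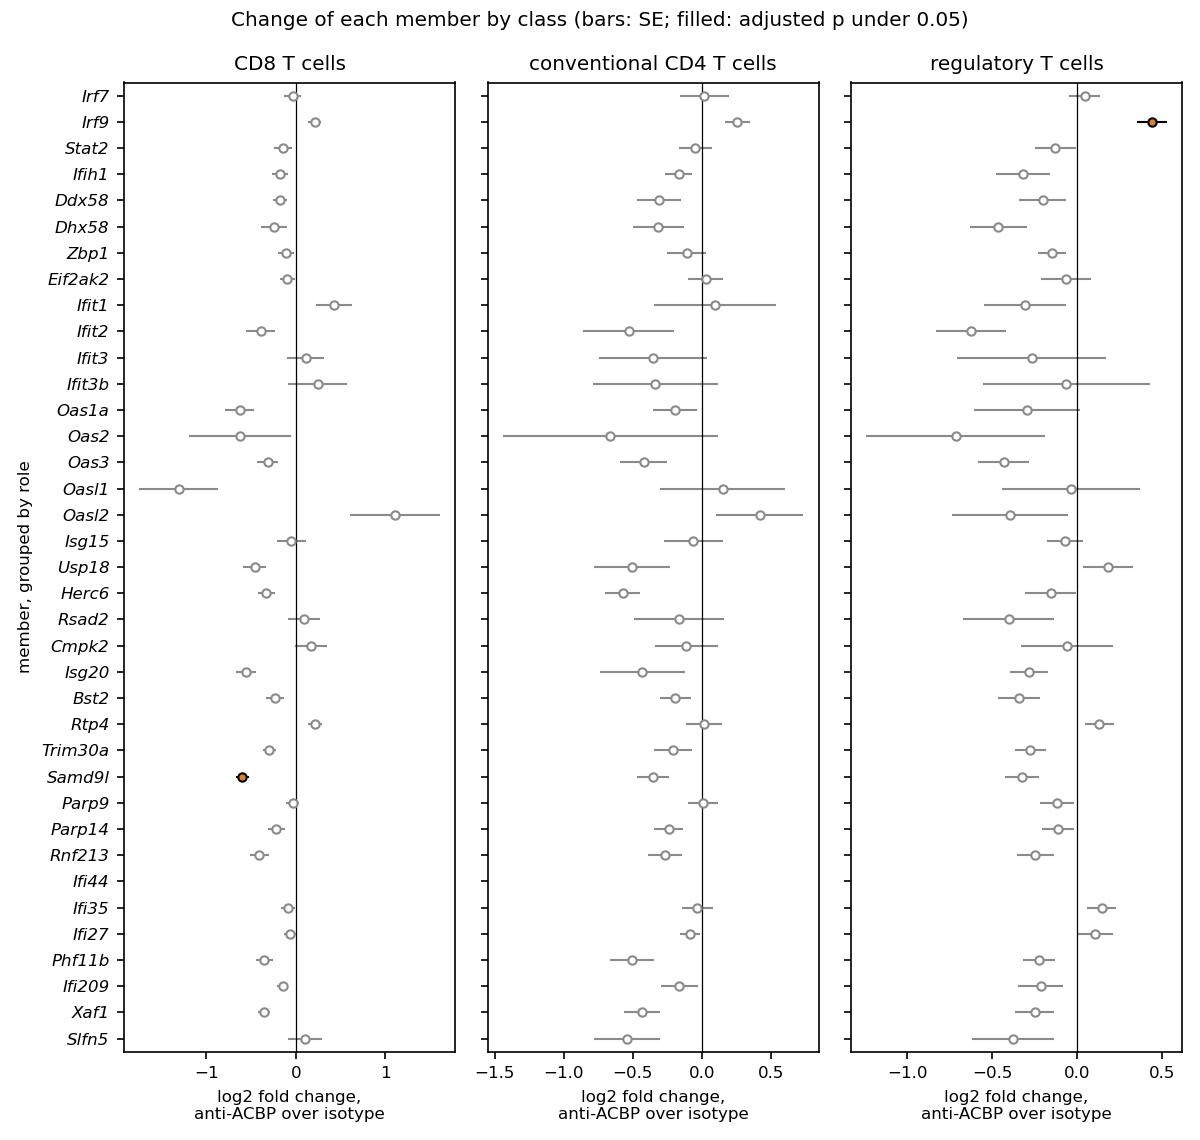
Log2 fold change, anti-ACBP over isotype, with its SE for each interferon response gene in CD8, conventional CD4 and regulatory T cells, ordered by role. Filled points have an edgeR adjusted p under 0.05; these are Samd9l in CD8 T cells (-0.60) and Irf9 in regulatory T cells (0.44).

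For none of these genes was the change called different between classes by edgeR's interaction test. None of 36 was called between CD8 and conventional CD4 T cells (0.00840% of all genes), none of 37 between regulatory and conventional CD4 T cells (0.202%) and none of 37 between regulatory and CD8 T cells (0.460%). At an unadjusted p under 0.05 there were 3 (8.33%), 3 (8.11%) and 8 (21.6%), where 7.35%, 12.7% and 9.57% of all genes reached it. The smallest adjusted p was 0.0725, for Usp18, the brake on receptor signalling, whose change was 0.68 higher on the log2 scale in regulatory than in CD8 T cells. All classes of a mouse come from 1 library, so their comparisons are not independent.

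Among the clusters, cluster 4 had the most calls. It is the cluster with the most UMIs per cell, and 5 of its 34 tested genes fell and none rose, where 0.918% of all genes were called. Samd9l had 27.2, 27.0 and 28.2 CPM with anti-ACBP and 39.4, 46.8 and 52.3 CPM with isotype (-0.77 ± 0.13, edgeR adjusted p = 0.0143). Xaf1 had between 48.2 and 50.9 CPM in the 3 anti-ACBP libraries, against 64.3, 78.4 and 80.9 CPM with isotype (-0.60 ± 0.11, adjusted p = 0.0210). In both genes the anti-ACBP libraries were close together and all below the isotype ones. Rnf213 had 64.6, 58.9 and 57.2 CPM with anti-ACBP and 78.5, 93.8 and 86.4 CPM with isotype. Ifi209, a PYHIN family gene, had 46.9, 49.9 and 53.3 against 66.3, 75.4 and 70.4 CPM, and Trim30a, an inhibitor of inflammatory signalling, 69.3, 74.7 and 75.3 against 88.1, 101 and 103 CPM, anti-ACBP before isotype. Their log2 fold changes were -0.53, -0.53 and -0.44.

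Most of the list lay lower in cluster 4. Of 34 genes 32 were negative, with a median of -0.38 against -0.0017 over all genes. At an unadjusted p under 0.05 there were 22 (64.7%), where 11.6% of all genes reached it. For 19 of the 34 all anti-ACBP libraries lay below all isotype libraries, where 7.28% of all genes did so. The summed genes had 1768, 1604 and 1690 CPM with anti-ACBP and 2010, 2410 and 2158 CPM with isotype. Irf9 did not follow, with 44.3, 45.2 and 44.6 against 43.6, 42.6 and 48.4 CPM, anti-ACBP before isotype. Isg20 had 96.2, 108 and 99.5 CPM with anti-ACBP and 146, 230 and 175 CPM with isotype (-0.89, adjusted p = 0.0664). The count rested on single libraries. It was 0 without any 1 anti-ACBP library or without isotype library 3, 3 without isotype library 2 and 11 without isotype library 1.

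The lineage of cluster 4 cells varied between libraries. Cells with more Cd8a and Cd8b1 than Cd4 UMIs made up 84.7%, 83.9% and 86.6% of it with anti-ACBP and 75.0%, 68.3% and 92.6% with isotype. A test of these cells alone was added after the data had been seen. Within those cells 7 of 33 tested genes fell, where 1.33% of all genes were called, and 32 were negative. They were Samd9l (-0.84), Ifi209 (-0.69), Xaf1 (-0.62), Trim30a (-0.48), Usp18 (-0.87), Rnf213 (-0.56) and Isg20 (-0.95). Usp18 had 19.7, 16.4 and 19.5 CPM with anti-ACBP and 27.2, 40.2 and 34.7 CPM with isotype there. The count was 3 without anti-ACBP library 2 or isotype library 3. With cells of at least 2 macrophage-marker UMIs left out, edgeR called 3 of the genes in cluster 4. The share of all genes called in that setting is not given here. The 11 macrophage and monocyte markers, Lyz2, C1qa, C1qb, C1qc, Adgre1 and Fcgr1 among them at 0, summed to 10.9 to 12.6 CPM with anti-ACBP and 8.30 to 15.0 CPM with isotype in cluster 4.

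In the other clusters the calls were the ones already seen in their class. Samd9l fell in cluster 0, with 51.4, 51.0 and 51.4 CPM with anti-ACBP and 74.7, 68.9 and 77.9 CPM with isotype (-0.57, edgeR adjusted p = 0.0261), as 1 of 35 genes where 1.24% of all genes were called. In cluster 3 it had 39.7, 41.9 and 43.2 CPM with anti-ACBP and 64.8, 61.7 and 63.2 CPM with isotype (-0.64, adjusted p = 0.0206), as 1 of 33 genes against 0.218% of all genes. Irf9 rose in cluster 2 (0.46, adjusted p = 0.0239), as 1 of 36 genes against 4.10%. Without anti-ACBP library 1 or 2, or without isotype library 3, each of these 3 calls was lost. Without anti-ACBP library 3 the calls in clusters 2 and 3 were lost too. The edgeR test called none of 36 genes in cluster 1 (0.192% of all genes), 32 in cluster 5 (0.207%), 32 in cluster 6 (2.40%) and 28 in cluster 7 (0.439%). At an unadjusted p under 0.05 there were 9, 1, 6 and 3, where 13.3%, 8.36%, 14.6% and 9.64% of all genes reached it. DESeq2 called 0 in each. In cluster 8 only 1 anti-ACBP library had at least 20 cells, so that arm has no replicates, and the edgeR fit (0 of 27 genes and 0.425% of all genes called, 6 at an unadjusted p under 0.05, DESeq2 0) is not read as a comparison of the groups.

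**Figure D4:**
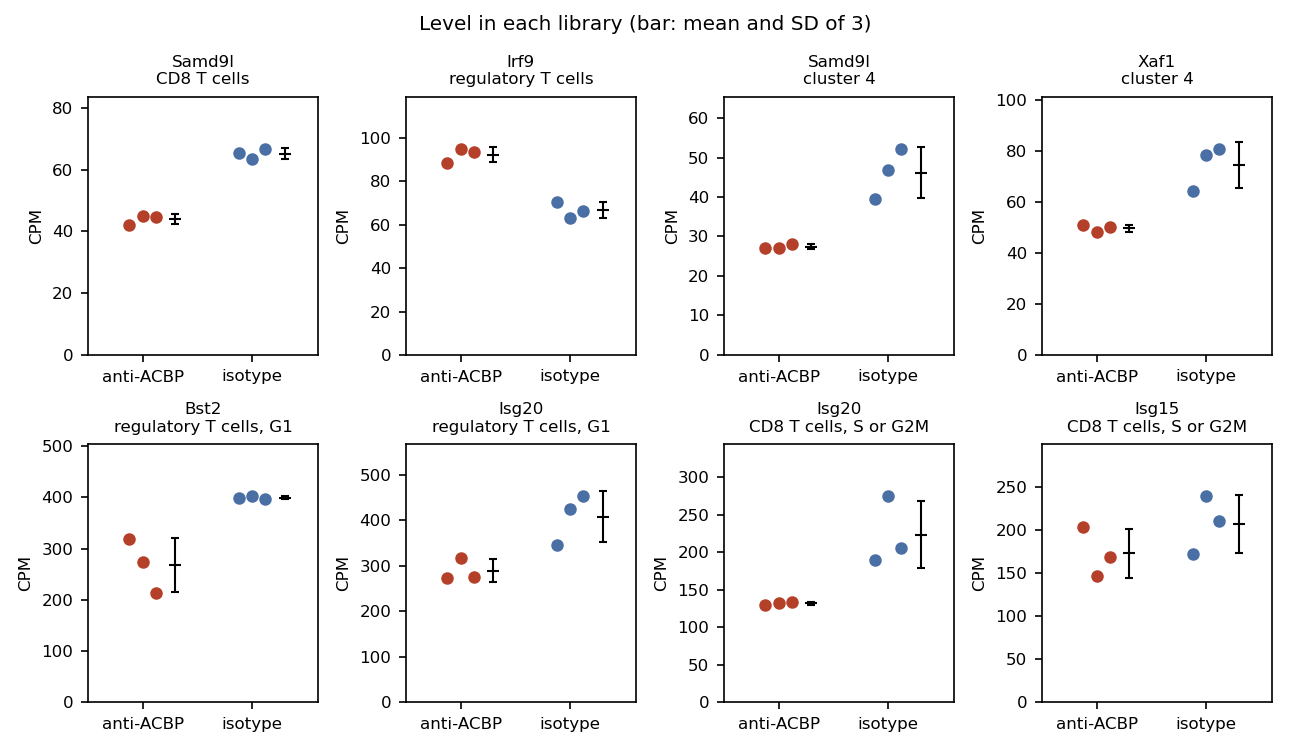
CPM of 8 gene and cell-set pairs by library, anti-ACBP left of isotype: Samd9l in CD8 T cells, Irf9 in regulatory T cells, Samd9l and Xaf1 in cluster 4, Bst2 and Isg20 in G1 regulatory T cells, and Isg20 and Isg15 in S or G2M CD8 T cells. Points are libraries and the bar beside them is the mean and SD of 3; the groups overlap only for Isg15.

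Regulatory T cells were also split by cell cycle phase. The tests by phase in each class, and those between phases, were added after the data had been seen. In G1 phase 7 of 36 tested genes fell with anti-ACBP and none rose, where 1.67% of all genes were called. They were Phf11b (-0.51 ± 0.10), Trim30a (-0.47 ± 0.09), Isg20 (-0.52 ± 0.10), Samd9l (-0.48 ± 0.11), Bst2 (-0.59 ± 0.13), Xaf1 (-0.46 ± 0.10) and Zbp1 (-0.37 ± 0.09), with edgeR adjusted p between 0.0193 and 0.0483. Isg20 had 274, 319 and 276 CPM with anti-ACBP and 346, 425 and 454 CPM with isotype. Bst2 had 318, 273 and 214 CPM with anti-ACBP and 399, 403 and 396 CPM with isotype, so the spread lay on the anti-ACBP side. Phf11b, a gene of the PHD finger family, had 117, 127 and 133 against 161, 170 and 196 CPM, anti-ACBP before isotype.

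Across the G1 regulatory T cells 34 of the 36 genes were negative, with a median of -0.47 against 0.0018 over all genes. At an unadjusted p under 0.05 there were 25 (69.4%), where 16.3% of all genes reached it. For 19 all anti-ACBP libraries were below all isotype libraries, where 8.83% of all genes were. The summed genes had 3269, 3230 and 2868 CPM with anti-ACBP and 3693, 4034 and 4216 CPM with isotype. Ifit2 had 10.3, 12.1 and 7.19 CPM with anti-ACBP and between 16.3 and 20.1 CPM with isotype (-0.89) and missed the threshold. Irf9 was higher in G1 as well, with 96.0, 108 and 98.1 against 86.6, 77.6 and 74.5 CPM, anti-ACBP before isotype (0.30, adjusted p = 0.153). The cells numbered 556, 392 and 284 with anti-ACBP and 900, 614 and 585 with isotype. The count of 7 was 2, 0 and 1 without anti-ACBP library 1, 2 and 3, and 11, 6 and 0 without isotype library 1, 2 and 3. With the replicate number as a block it was 4.

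In S or G2M phase edgeR called none of 33 genes in regulatory T cells, where 0.694% of all genes were called. At an unadjusted p under 0.05 there were 6 (18.2%), where 9.32% of all genes reached it, and DESeq2 called 0. The summed genes overlapped, at 2360, 2860 and 2547 CPM with anti-ACBP and 2362, 2580 and 2706 CPM with isotype, and 17 of 33 were negative. The groups held 160, 86 and 50 cells with anti-ACBP and 496, 265 and 318 cells with isotype. For 5 of 36 genes the change differed between the phases by edgeR's interaction test with the mouse as a block, where 0.483% of all genes did so. They were Phf11b (0.67 ± 0.12 higher in S or G2M than in G1, adjusted p = 0.00259), Bst2 (0.56 ± 0.10), Irf7 (0.57 ± 0.13), Ifit1 (0.84 ± 0.19) and Isg20 (0.42 ± 0.10). Bst2 had 304, 330 and 258 CPM with anti-ACBP and 325, 280 and 279 CPM with isotype in S or G2M. Irf7 had 136, 132 and 137 CPM with anti-ACBP and 153, 166 and 165 CPM with isotype in G1, while in S or G2M it had 86.4, 106 and 92.7 against 68.5, 87.4 and 77.2 CPM. Samd9l was lower in both phases, with 28.8, 34.5 and 35.5 against 43.7, 48.9 and 50.6 CPM in S or G2M, anti-ACBP before isotype. The count of 5 was 0 without anti-ACBP library 2, 4 without library 3 and 2 without isotype library 1 or 3, and 6 without anti-ACBP library 1 or isotype library 2.

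In CD8 T cells most of the genes were lower in both phases. In S or G2M phase 5 of 35 genes fell, where 0.556% of all genes were called: Samd9l (-0.76 ± 0.08), Xaf1 (-0.50 ± 0.08), Trim30a (-0.40 ± 0.07), Isg20 (-0.79 ± 0.12) and Rnf213 (-0.52 ± 0.10), with edgeR adjusted p between 0.00680 and 0.0489. Isg20 had 130, 132 and 134 CPM with anti-ACBP and 190, 275 and 206 CPM with isotype. Of 35 genes 33 were negative, with a median of -0.29, and 17 lay below without overlap, where 7.17% of all genes did. The count was 1, 0 and 1 without anti-ACBP library 1, 2 and 3, and 6, 4 and 0 without isotype library 1, 2 and 3. It was 8 with the replicate block and 8 by DESeq2. The shares of all genes called in these settings are not given here. In G1 phase 1 of 35 fell, Samd9l (-0.61), where 0.888% of all genes were called. There 26 of 35 were negative, with a median of -0.14. At an unadjusted p under 0.05 there were 15 (42.9%), where 16.0% of all genes reached it. In G1, 11 lay below without overlap, where 7.61% of all genes did. The call of Samd9l in G1 was lost without anti-ACBP library 1 or 2 or isotype library 3. The change differed between the phases for Isg15 alone among 35 genes (0.0532% of all genes), being 0.31 ± 0.06 lower in S or G2M (adjusted p = 0.0434). Isg15, a ubiquitin-like tag, had 204, 147 and 169 against 172, 240 and 211 CPM in S or G2M and 279, 212 and 216 against 175, 275 and 233 CPM in G1, anti-ACBP before isotype, which overlap in both. That call was lost without anti-ACBP library 1 or any 1 isotype library. In conventional CD4 T cells edgeR called none of 36 in G1 (0.489% of all genes) and none of 33 in S or G2M (0.400%). DESeq2 called 0 in each. At an unadjusted p under 0.05 there were 8 and 7, where 14.3% and 10.4% of all genes reached it. None of 34 differed between the phases (0.156% of all genes), with 3 at p under 0.05, where 5.85% of all genes reached it.

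**Figure D5:**
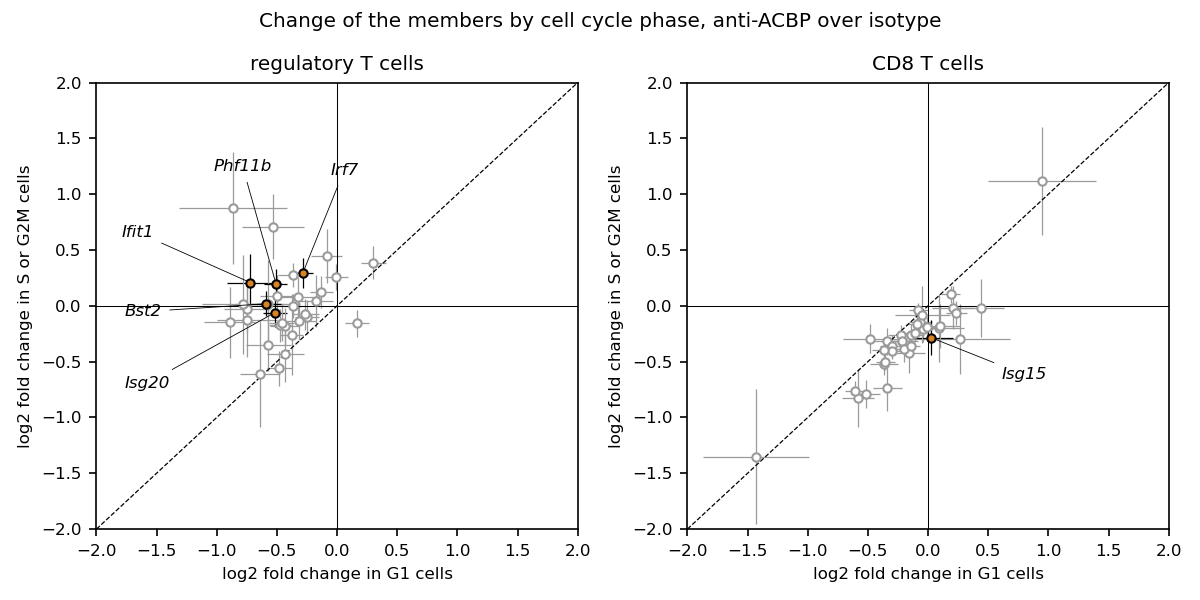
Log2 fold change, anti-ACBP over isotype, in S or G2M against G1 phase cells, one point per interferon response gene with its SE in both directions and a dashed line of equal change, for regulatory and CD8 T cells. Named genes are those whose change differs between the phases (edgeR adjusted p under 0.05): Phf11b, Bst2, Irf7, Ifit1 and Isg20 in regulatory and Isg15 in CD8 T cells. Most regulatory T cell points lie above the diagonal and most CD8 points below it.

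A pathway list held receptors, kinases, factors and inhibitors of the response. It also held Ifnb1, Ifng, the interferon gamma receptor genes Ifngr1 and Ifngr2, and nucleic acid sensing genes (Cgas, Tmem173, Mavs, Tbk1, Ikbke). Its genes were called in few comparisons. Of 20 tested genes of this list, none was called in CD8 T cells by edgeR, where 0.929% of all genes were. At an unadjusted p under 0.05 there were 4 of 20, where 17.9% of all genes reached it. In conventional CD4 T cells 1 rose (0.329% of all genes called) and in regulatory T cells 3 rose (3.34%). None fell in these classes, while in cluster 6 Socs1 rose (1.20) and Ifnar2, a receptor subunit, fell (-0.71). Socs1, the inhibitor of JAK kinases, had 244, 269 and 280 CPM in anti-ACBP and 78.5, 104 and 79.0 CPM in isotype regulatory T cells (1.58 ± 0.11, edgeR adjusted p = 0.000167). It also rose in conventional CD4 T cells (0.71). Socs3, a related inhibitor, and Irf1, a transcription factor shared with type II interferon, rose in regulatory T cells by 1.33 and 0.92 on the log2 scale.

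Of 56 tested interferon-stimulated genes outside the list, 1 fell in CD8 T cells, Ube2l6 (the conjugating enzyme of ISG15, -0.60). None was called in conventional CD4 T cells, where 0.329% of all genes were. At an unadjusted p under 0.05 there were 11 (19.6%), where 15.2% of all genes reached it. In regulatory T cells 4 rose, namely Ifitm3 (0.75), Slfn2 (0.73), Ms4a4b (0.59) and Ifi47 (0.51), and 1 fell, Phf11c (-0.79). In G1 regulatory T cells 7 of the 56 fell, among them Ifi203 (-0.69), Mndal (-0.48), Ddx60 (-0.77) and Lgals9 (-0.48), and 2 rose. Over all genes 0.929% were called in CD8, 3.34% in regulatory and 1.67% in G1 regulatory T cells. In cluster 4, where 0.918% of all genes were called, the falls were Trim30d (-1.18), Ifi27l2a (-0.73) and Ifi213 (-0.66). Of 26 genes of the type II interferon list, 5 rose in regulatory T cells, where 3.34% of all genes were called, and none fell: Socs1 and Irf1 again, Cd274 (the PD-1 ligand, 0.69), Igtp (0.57) and Irgm1 (0.63), both GTPases induced by interferon gamma. In CD8 T cells Tgtp2, another such GTPase, rose (0.66), where 0.929% of all genes were called. In G1 regulatory T cells 1 gene of the type II list rose, Socs1 (1.43), and 2 fell, the proteasome subunit genes Psmb10 (-0.38) and Psmb9 (-0.35), where 1.67% of all genes were called.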

How the data were processed

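Each tumour has its own deposited matrix of raw UMI counts, genes by cell barcodes; the authors made these counts with Cell Ranger 7.0.0 on mm10 and used Seurat, per the submitters' processing notes. The deposited cell table gave the 30749 cells, the clusters and the cell cycle phases. A cell was called CD8, conventional CD4 or regulatory from its cluster or, in the mixed clusters 4, 5 and 8, from its own Cd4, Cd8a and Cd8b1 UMIs, with a Foxp3 UMI marking regulatory T cells. Counts were summed per library and cell set and scaled to CPM over all genes. The sums were compared, anti-ACBP over isotype, with edgeR 4.0.16 (filterByExpr, TMM, quasi-likelihood test, Benjamini-Hochberg adjustment over all tested genes, threshold 0.05) in R 4.3.3, with limma 3.58.1. The statistics were tested on simulated data with known changes. Classes, clusters and phases of a mouse share 1 library. The tests by phase, between phases and in CD8-lineage cells of cluster 4 were not planned and were added after the data had been seen. DESeq2 1.42.0, other filters, a replicate block and left-out libraries were alternatives. The replicate numbers do not pair the samples: they name mice of separate groups. Named genes were those called, the 8 with the smallest p and the 8 with the most UMIs in each class, and the 8 with the largest ratio between clusters among genes of at least 5 CPM. The members and all gene lists were chosen with earlier results of these data known. No doublet caller was run; 1028 cells have at least 2 TCR beta chains. The value FALSE occurs for 2407 cells in a field of the cell table named DF1, whose meaning is not stated. Summed UMIs were 2454740 to 37527109 per class and library.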

Additional observations from a re-analysis of the deposited data

Results flagged for a closer look

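For the following genes the change with anti-ACBP differed between cell sets by edgeR's interaction test, adjusted over all tested genes. In regulatory T cells Socs1 changed by 0.90 ± 0.09 more on the log2 scale than in conventional CD4 T cells (adjusted p = 0.000935) and by 0.96 ± 0.10 more than in CD8 T cells (adjusted p = 0.000847). Against CD8 T cells the difference was also called for Cd274 (0.82 ± 0.09), Ifitm3 (0.70 ± 0.10) and Cxcl10 (1.77 ± 0.32). Cxcl10, a chemokine gene, had 71.8, 58.3 and 3.67 CPM in anti-ACBP and 14.0, 0.182 and 0 CPM in isotype regulatory T cells, so its libraries varied widely. Between S or G2M and G1 phase, the change in regulatory T cells differed for Ms4a4b (0.60 ± 0.09), Ifitm3 (0.65 ± 0.12), Irgm1 (0.70 ± 0.15), Phf11b (0.67), Bst2 (0.56), Irf7 (0.57), Ifit1 (0.84) and Isg20 (0.42), all more positive in S or G2M. In CD8 T cells the difference for Isg15 was -0.31.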

How the results depend on the processing

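Alternatives were run for the genes called by edgeR, and none of those genes changed sign. Of 322 such alternatives, 206 kept the call and 116 lost it. Counts below for other filters, tools, blocks and left-out libraries are given without the share of all genes called in that setting. They show how far the calls move and are not read as results about these genes. With no filter on low counts edgeR called 6 of the genes in CD8 T cells, 1 in the conventional CD4 class, 3 in the regulatory class, 4 in cluster 0, 3 in cluster 1, 3 in cluster 2, 4 in cluster 3, 16 in cluster 4, 4 in cluster 6, 1 in cluster 7, 1 in cluster 8 and 14 in CD8-lineage cells of cluster 4. The same setting gave 1 in each of the 3 comparisons between classes, 6 in CD8 G1, 2 in conventional CD4 G1, 20 in regulatory G1, 10 in CD8 S or G2M and 5 in conventional CD4 S or G2M cells. With the replicate block, which the design does not pair, the calls were 2 in CD8 T cells, 3 in cluster 0, 3 in cluster 3, 8 in cluster 4, 2 in CD8 G1, 4 in regulatory G1 and 8 in CD8 S or G2M cells. DESeq2 called 8 in CD8, 1 in conventional CD4, 3 in cluster 0, 2 in cluster 3, 4 in CD8 G1 and 8 in CD8 S or G2M cells. Limited to a phase, CD8 S or G2M gave 5, regulatory G1 gave 7 and regulatory S or G2M gave 0. Without cells of at least 2 macrophage-marker UMIs cluster 4 gave 3. The median log2 fold change was -0.11 in CD8 T cells without cells whose DF1 field is FALSE and -0.29 in S or G2M, -0.30 in conventional CD4 T cells by each cell's own lineage, and -0.47 in G1 and -0.00083 in S or G2M regulatory T cells. Unthinned, the share of cells with at least 3 induced genes was 3.80 points higher with anti-ACBP in CD8 T cells and 1.20 points higher in conventional CD4 T cells, against -0.715 and -1.54 points thinned; libraries differ in depth.

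Leaving out 1 library at a time gave calls from 0 to 7 in CD8 T cells, 0 to 4 in the conventional CD4 class and 0 to 1 in the regulatory class. The clusters ranged from 0 to 3 (cluster 0), 0 to 3 (1), 0 to 1 (2), 0 to 4 (3), 0 to 11 (4), 0 to 0 (5), 0 to 1 (6), 0 to 0 (7) and 1 to 3 (8), and CD8-lineage cells of cluster 4 from 3 to 9. G1 cells ranged from 0 to 4 for CD8, 0 to 4 for conventional CD4 and 0 to 11 for regulatory T cells, and S or G2M cells from 0 to 6, 0 to 3 and 0 to 0. Differences between phases ranged from 0 to 1, 0 to 0 and 0 to 6, and those between classes from 0 to 0, 0 to 0 and 0 to 1. Medians ranged from -0.21 to -0.13 for CD8, -0.29 to -0.083 for conventional CD4 and -0.33 to -0.12 for regulatory T cells. Cluster 8 has 1 anti-ACBP library, so its counts have no replicate check on that side.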
